A study of Homo sapiens with 26 samples.

Results

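A set of 50 genes of G2 and mitosis is described here in KELLY neuroblastoma cells and xenografts in which hairpins against RUNX1T1, a transcriptional co-repressor, were induced. The 50 members were found by symbol among the 26485 genes of each deposited count table, and all 50 were present and passed the filter on low counts in both tables. KELLY, an established cell line from a human neuroblastoma, carries extra copies of MYCN. A lentiviral vector that doxycycline switches on, marked by green fluorescent protein, had been put into the cells either empty (EV) or with a hairpin named sh4 or shAMB in the labels. Doxycycline or its solvent DMSO was given to each of the 3 lines for 72 h, with 3 replicates in every group, so that the EV cells and all DMSO cells also carried the vector. A further 8 libraries came from tumors grown under the skin of female immunodeficient NOD SCID gamma mice from KELLY cells with a hairpin, 4 from mice on control food and 4 from mice on doxycycline food.

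The labels call the 4 tumors on doxycycline food a RUNX1T1 knock-out and the controls wild type, although the study describes an induced hairpin, and they do not say which of the hairpins these tumors carried. The study's text names for its xenografts the hairpin based on an Ambion siRNA sequence, but no label ties that hairpin to the name shAMB. The lines were transduced cultures, and since nothing says that replicates came from separate cultures, p-values measure the spread between these samples, which may be technical. The DMSO and doxycycline columns of the cell culture table are headed Neg and Pos, and each direction given for the cultured lines depends on reading them as DMSO and doxycycline. Nothing in the sources used here says how mouse reads were handled in the tumors.

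The members are the machinery with which a cell enters and leaves mitosis. Cyclin B bound to CDK1 drives entry, the kinetochore and the spindle checkpoint hold chromosomes until they are attached, the anaphase promoting complex then destroys securin and cyclin B, and motors of the central spindle divide the cell. Their transcripts rise together late in the cell cycle under MYBL2, FOXM1 and the MuvB complex, and MYCN-amplified neuroblastoma is known for rapid division. Since whole cultures and tumors were sequenced, fewer cells in G2 or mitosis and less RNA per such cell cannot be told apart.

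The cell culture libraries held 35115915 to 54736733 expected counts and the tumor libraries 47346063 to 62378060, and the lowest count of any member in any library was 641. RUNX1T1, the targeted gene, stood at 34.7, 33.3 and 35.0 CPM (read counts scaled to a common library total) in uninduced and 31.2, 33.9 and 30.1 CPM in induced sh4 cells, at 40.8, 42.0 and 39.9 and 41.3, 44.1 and 42.2 CPM in shAMB, and at 35.5 ± 5.51 and 30.2 ± 5.19 CPM (SD, n = 4) in control and doxycycline tumors, with overlap. It did not pass the test on induction of EV (log2 fold change -0.16 ± 0.05 SE, adjusted p = 0.672), sh4 (log2 fold change -0.11 ± 0.05 SE, adjusted p = 0.117) or shAMB (log2 fold change 0.06 ± 0.05 SE, adjusted p = 0.378) or in the tumors (log2 fold change -0.23 ± 0.15 SE, adjusted p = 0.229). RUNX1T1 was lower in uninduced sh4 than in uninduced EV cells (-0.29 ± 0.05 SE, adjusted p = 0.0144), and the shAMB effect minus the EV effect was above 0 (0.21 ± 0.08, adjusted p = 0.0353). Its level therefore did not check the labels, and groups are named by their labels throughout. All 12 neuroblastoma markers were detected in every group, and their summed level was 5217 to 5474 CPM in uninduced and 9151 to 9947 CPM in induced shAMB cells, and 5621 to 6761 and 8449 to 11757 CPM in control and doxycycline tumors. The rise of the sum was that of MYCN, which alone went from 2085 to 2170.0 CPM up to 5944 to 6561 CPM in shAMB and from 2433 to 2887 up to 6112 to 8211 CPM in the tumors. The other 11 markers summed to 3087 to 3349 and 3207 to 3444 CPM in shAMB and to 3113 to 4088 and 2337 to 3717 CPM in the tumors, and some of them fell, such as the neuronal gene STMN2 in shAMB by 1.55 on the log2 scale (adjusted p = 6.77e-11). Of all 12 markers, MYCN among them, 6 rose and 3 fell in shAMB, and 5 rose and 1 fell in the tumors. The 8 blood and immune markers summed to at most 2.72 CPM and the 6 endothelial markers to at most 2.34 CPM in every group, with HBA1 and HBB at 0 throughout. The 8 fibroblast and pericyte markers, which the cultured line also expressed, summed to 10485 to 11543 and 4043 to 4555 CPM in uninduced and induced shAMB cells and to 7984 to 10255 and 2387 to 3014 CPM in control and doxycycline tumors. The fall of this sum was not one of the whole list. Of its 6 genes tested, 2 rose and 3 fell in shAMB, and 1 rose and 1 fell in the tumors. Their median log2 fold changes were -0.40 and 0.31. The part of these shifts in the results on the members was not tested. Libraries also differed in how strongly GC-rich genes were represented: after centring each gene, the mean log2 level of genes in the upper quartile of GC content minus that of genes in the lower quartile was -0.59 to -0.29 in uninduced and 0.13 to 0.54 in induced shAMB libraries, without overlap. In the sh4 line it was -0.04 to 0.53 with DMSO and -0.39, -0.23 and 0.49 with doxycycline, where replicate 3 stood apart, and in the tumors the groups overlapped.

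Per kilobase of gene length, the members spanned 11.1 to 234 CPM per kb in uninduced EV cells, with a median of 62.9. PTTG1, the securin that holds the cohesin-cutting protease in check, was highest at 234 CPM per kb. It was followed by TOP2A, the topoisomerase that untangles sister chromatids, at 219 and by the condensin subunit SMC4 at 192 CPM per kb. At the low end stood INCENP, the scaffold of the chromosomal passenger complex, at 13.9 and the kinetochore gene CENPI at 11.1 CPM per kb. The control tumors, which were scaled separately, had a median of 48.7 CPM per kb and the highest level in TOP2A at 157.

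**Figure D1:**
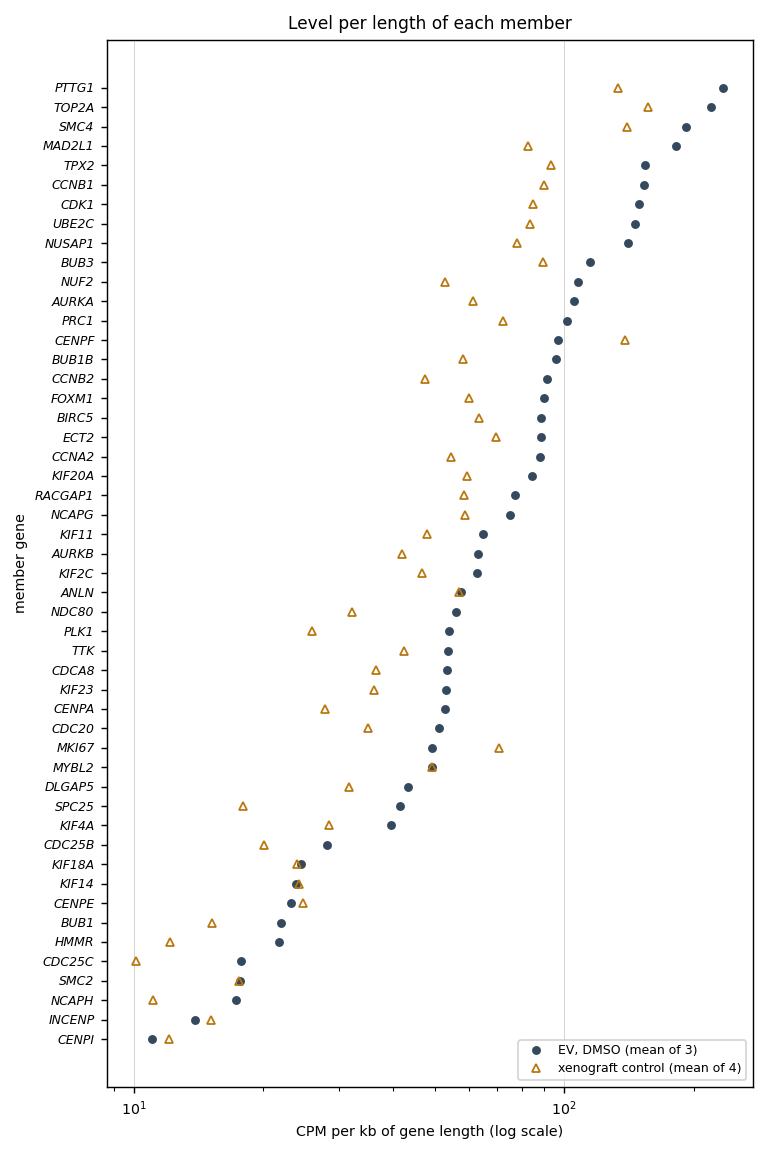
Mean level of each member in CPM per kb of gene length on a log scale, for uninduced EV cells (filled circles, 3 libraries) and control tumors (open triangles, 4 libraries). The order follows the EV cells, from CENPI at 11.1 to PTTG1 at 234, and the tumor values were scaled in a separate table.

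Doxycycline without a hairpin changed none of the members past the threshold. In EV cells 0 of 50 members were called by edgeR at an adjusted p under 0.05, against 0.0939% of all 14905 genes in either direction, and 2 members had an unadjusted p under 0.05, both lower, which is 4% of the members where 5.9% of all genes had one. DESeq2 also called 0. The fitted values nevertheless leaned one way, since 39 of 50 members lay below 0 and the median was -0.10 on the log2 scale, against 0.01 over all genes. The median was -0.05 without EV DMSO replicate 1 and -0.04 with trends in GC content and gene length removed. In 11 members all 3 doxycycline libraries lay below all 3 DMSO libraries, against 7.17% of all genes. One of these was CCNB1, the main mitotic cyclin, which stood at 339, 334 and 324 CPM with DMSO and at 307, 304 and 311 CPM with doxycycline. Its value of -0.11 ± 0.06 SE on the log2 scale did not pass the test (adjusted p = 0.672).

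With a hairpin, a large share of the members fell in each setting. In the sh4 line 28 of 50 members fell and 1 rose on induction, where 18% of all genes fell, 22.9% rose and 40.9% passed the test in either direction. In the shAMB line 26 fell and 9 rose, where 28.4% of all genes fell, 37.6% rose and 66.0% passed in either direction. With libraries scaled by relative log expression (RLE) instead of TMM, the shAMB counts were 29 lower and 5 higher, and with the deposited TPM values, which are scaled by gene length, 16 and 16. Over all genes 9789 of 14905 passed with RLE, 4936 of them higher, and 10292 with TPM, 7515 of them higher. With the shAMB libraries fitted alone the members' counts were 32 and 5, and with trends in GC content and gene length removed 30 and 14. Over all genes these fits called 10340 of 14514, 5286 of them higher, and 10653 of 14905, 5490 of them higher. Relative log expression moved the median of all genes in shAMB from 0.10 to 0.02 on the log2 scale, and with TPM it was 0.21. With TPM the sh4 counts were 11 lower and 8 higher, around a median of all genes of 0.12, where 7191 of 14905 genes passed and 5805 of these were higher. In the doxycycline tumors 21 members were lower and 1 was higher than in the control tumors, where 19.9% of the 15960 genes tested were lower, 21.2% higher and 41.1% passed in either direction. With TPM 3 members passed there, all lower. No share of all genes was set beside that count, so it is not read as a loss of response. The members' median log2 fold change in the tumors was -0.16 with TPM and -0.21 in the main fit. With the sh4 libraries fitted alone 17 passed in sh4, all lower, where 25.8% of all genes passed in either direction.

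The median log2 fold change over the members was -0.23 in sh4, -0.20 in shAMB and -0.21 in the tumors, against -0.0046, 0.10 and 0.02 over all genes. With TPM the members' medians were -0.053, -0.025 and -0.16, against 0.12 and 0.21 over all genes in sh4 and shAMB, and in shAMB the median was -0.28 with its libraries fitted alone and -0.14 with GC and length trends removed. No overlap between induced and uninduced libraries, with the induced ones lower, was found for 23 members in sh4, 27 in shAMB and 16 in the tumors, against 17.9%, 31.2% and 18.4% of all genes. In all, 39 members fell in at least 1 of the 3 settings, 78% of them where 42.9% of all genes tested in both tables did, and 31 had a fitted value below 0 in all 3. The test was passed in none of them by 6 members: the kinase gene AURKA, the kinetochore genes NDC80 and NUF2, ECT2, which activates RhoA in cytokinesis, the proliferation marker MKI67, which coats mitotic chromosomes, and SMC4. These are 12% of the members, where 16.7% of all genes passed in none. The list depends on the processing: with GC and length trends removed each of the 6 passed in at least 1 setting, with AURKA at -0.09 in sh4 and 0.16 in shAMB, and with TPM NUF2 alone passed in none. Summed over the 50 members, the level was 12100 ± 416 CPM (SD, n = 3) in uninduced and 10588 ± 645 CPM in induced sh4 cells. It was 13033 ± 232 and 11838 ± 415 CPM in the shAMB line, and 10116 ± 805 and 8884 ± 913 CPM (SD, n = 4) in control and doxycycline tumors. In EV cells the sum was 12801 ± 442 CPM with DMSO and 12149 ± 163 CPM with doxycycline.

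**Figure D2:**
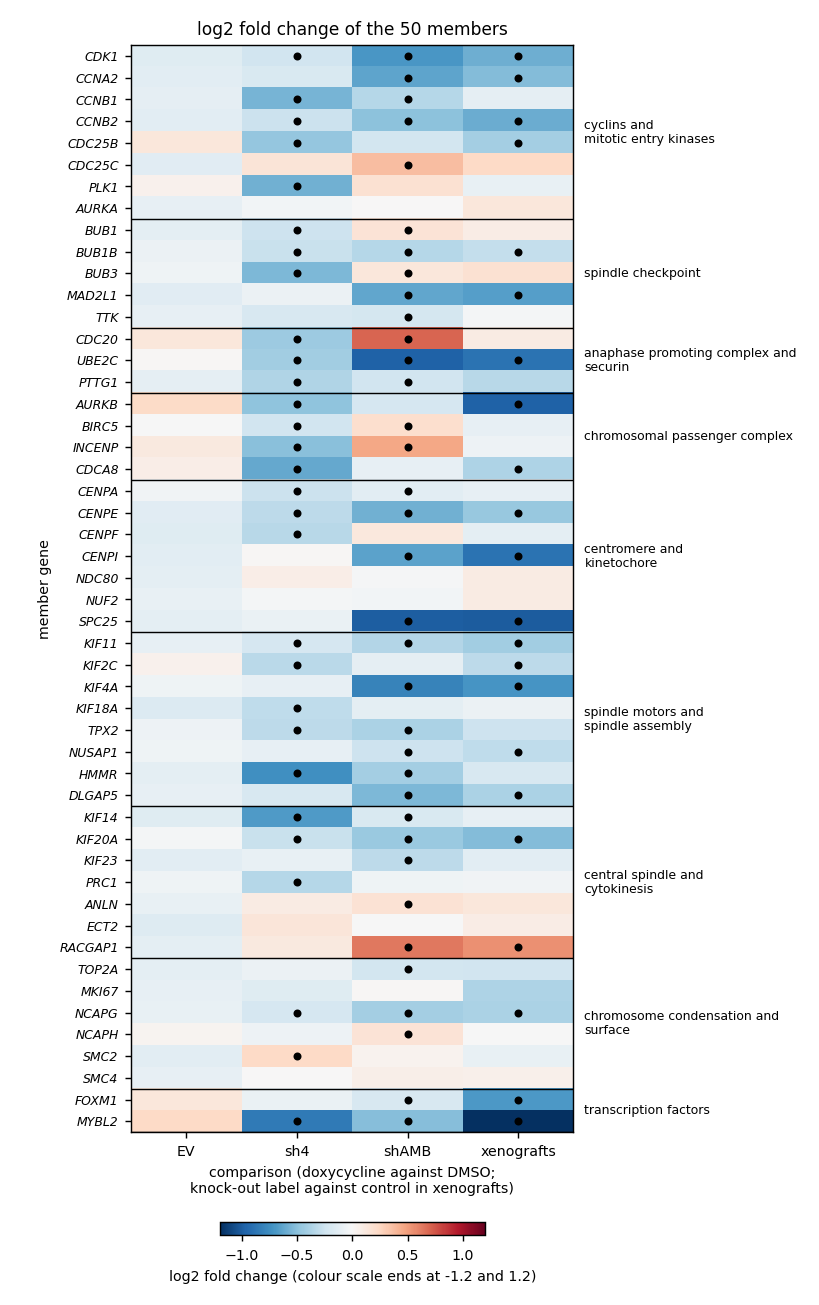
Fitted log2 fold change of each member (rows, grouped by role) in the EV, sh4 and shAMB lines and in the tumors (columns), with blue for lower and red for higher after doxycycline and a dot where the adjusted p was under 0.05. The EV column holds no dots, and the sh4, shAMB and tumor columns hold 28, 26 and 21 members that fell.

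With sh4, with shAMB and in the tumors alike, 9 members fell, 18% of them where 5.03% of all genes tested in both tables did. They were CDK1, CCNB2, BUB1B, UBE2C, CENPE, KIF11, KIF20A, NCAPG and MYBL2. As a share of the DMSO level, doxycycline left 90.5% of CDK1 in EV and 85.5% in sh4. In the same order, 91.8% and 83.7% were left of CCNB2, 95.5% and 83.3% of BUB1B, and 101% and 74.8% of UBE2C. CENPE was left at 91.2% and 80.7%, KIF11 at 93.7% and 87.0%, and KIF20A at 98.1% and 83.25%. NCAPG was left at 94.3% and 86.9% and MYBL2 at 118% and 55.6%. With the sh4 libraries fitted alone, CDK1, CCNB2, BUB1B, CENPE, KIF11 and NCAPG lost their call in sh4. With TPM 0 members fell in all 3 settings. In the tumors 8 of the 9 lost their call, and in shAMB KIF11 and MYBL2 did. In sh4 CDK1, CCNB2, BUB1B, CENPE, KIF11, KIF20A and NCAPG lost theirs, where 48.2% of all genes passed. With GC and length trends removed 22 members fell in all 3, these 9 among them. CDK1, the kinase that drives mitotic entry, stood at 234, 264 and 272 CPM in uninduced and at 242, 222 and 195 CPM in induced sh4 cells, where the groups overlapped. In the shAMB line its levels were 296, 321 and 300.3 CPM without and 197, 192 and 176 CPM with induction. In control tumors they were 190.0, 130.0, 171 and 152 CPM and in doxycycline tumors 96.1, 100.03, 105 and 128 CPM. All induced values lay below all control values in the shAMB line and in the tumors. The log2 fold change of CDK1 was -0.23 ± 0.08 SE in sh4 (adjusted p = 0.0334), -0.70 ± 0.08 in shAMB (adjusted p = 1.69e-06) and -0.59 ± 0.13 in the tumors (adjusted p = 0.00418), so that 61.6% of the level was left in shAMB. The call in sh4 was lost without DMSO replicate 2 or 3 or without doxycycline replicate 2 or 3.

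CCNB2, a cyclin partner of CDK1, fell by 0.26 in sh4 (adjusted p = 0.00838), 0.49 in shAMB (adjusted p = 1.83e-05) and 0.60 in the tumors (adjusted p = 0.00284) on the log2 scale. Its tumor levels were 85.6, 57.1, 76.3 and 74.8 CPM in controls and 44.02, 46.5, 50.3 and 53.4 CPM on doxycycline food, without overlap. UBE2C encodes the ubiquitin-conjugating enzyme of the anaphase promoting complex. It held 128, 135 and 128 CPM in uninduced and 97.1, 98.8 and 96.7 CPM in induced sh4 cells. In shAMB cells it went from 123, 122 and 126 to 64.9, 65.8 and 58.3 CPM. The replicates of UBE2C lay close together in both lines, and the groups did not overlap in any of the 3 settings. Its log2 fold change was -0.42 ± 0.05 SE in sh4 (adjusted p = 8.37e-06), -0.97 ± 0.05 in shAMB (adjusted p = 3.11e-10) and -0.89 ± 0.14 in the tumors (adjusted p = 0.000489).

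MYBL2, the B-Myb factor that activates many of the other members, had the largest fall of any member in sh4 and in the tumors. Its levels were 233, 189 and 151 CPM in uninduced and 81.5, 90.2 and 147 CPM in induced sh4 cells. In control tumors they were 82.5, 144, 153 and 167 CPM and on doxycycline food 66.7, 45.2, 47.8 and 29.5 CPM. Both comparisons were without overlap, although induced sh4 replicate 3 came close to the lowest control. The log2 fold change was -0.85 ± 0.21 SE in sh4 (adjusted p = 0.00428), -0.51 ± 0.21 in shAMB (adjusted p = 0.0437) and -1.53 ± 0.25 in the tumors (adjusted p = 0.000815), and 34.6% of the tumor level was left. MYBL2 is the most GC-rich member, at 60.3% GC, and uninduced and induced replicate 3, with its lowest and highest sh4 level in their groups, also had the lowest and highest GC contrast of those groups. With GC and length trends removed, MYBL2 was at -0.64 ± 0.05 SE (adjusted p = 3.42e-09) in sh4 and at -1.12 ± 0.05 SE (adjusted p = 1.14e-12) in shAMB, and the difference between the lines, sh4 minus shAMB, turned from -0.34 to 0.49. In shAMB the call was lost with TPM (-0.33, adjusted p = 0.167), without uninduced replicate 1 or 3 or without any 1 of the induced replicates.

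BUB1B, the checkpoint kinase-like protein BubR1, fell by 0.26, 0.34 and 0.28 on the log2 scale in sh4, shAMB and the tumors. The tumor value passed the test narrowly (adjusted p = 0.0487) and was lost with RLE scaling, without control replicate 1, 3 or 4 or without doxycycline replicate 1, 2 or 3. CENPE, the motor that carries chromosomes to the spindle equator, fell by 0.31, 0.58 and 0.46, with tumor levels of 229.6, 192, 202 and 201 CPM in controls and 132, 154, 147 and 167 CPM on doxycycline food. KIF11, the motor that pushes the spindle poles apart, fell by 0.20, 0.35 and 0.42. KIF20A, a motor of the central spindle, fell by 0.26, 0.45 and 0.52, without overlap in any of the 3 settings. NCAPG, a condensin subunit, fell by 0.20, 0.40 and 0.38. In sh4 the calls of KIF11 (adjusted p = 0.0292) and NCAPG (adjusted p = 0.0368) were lost without DMSO replicate 2 or 3 or without doxycycline replicate 3, and in the tumors that of NCAPG (adjusted p = 0.0223) without control replicate 3 or doxycycline replicate 2.

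**Figure D3:**
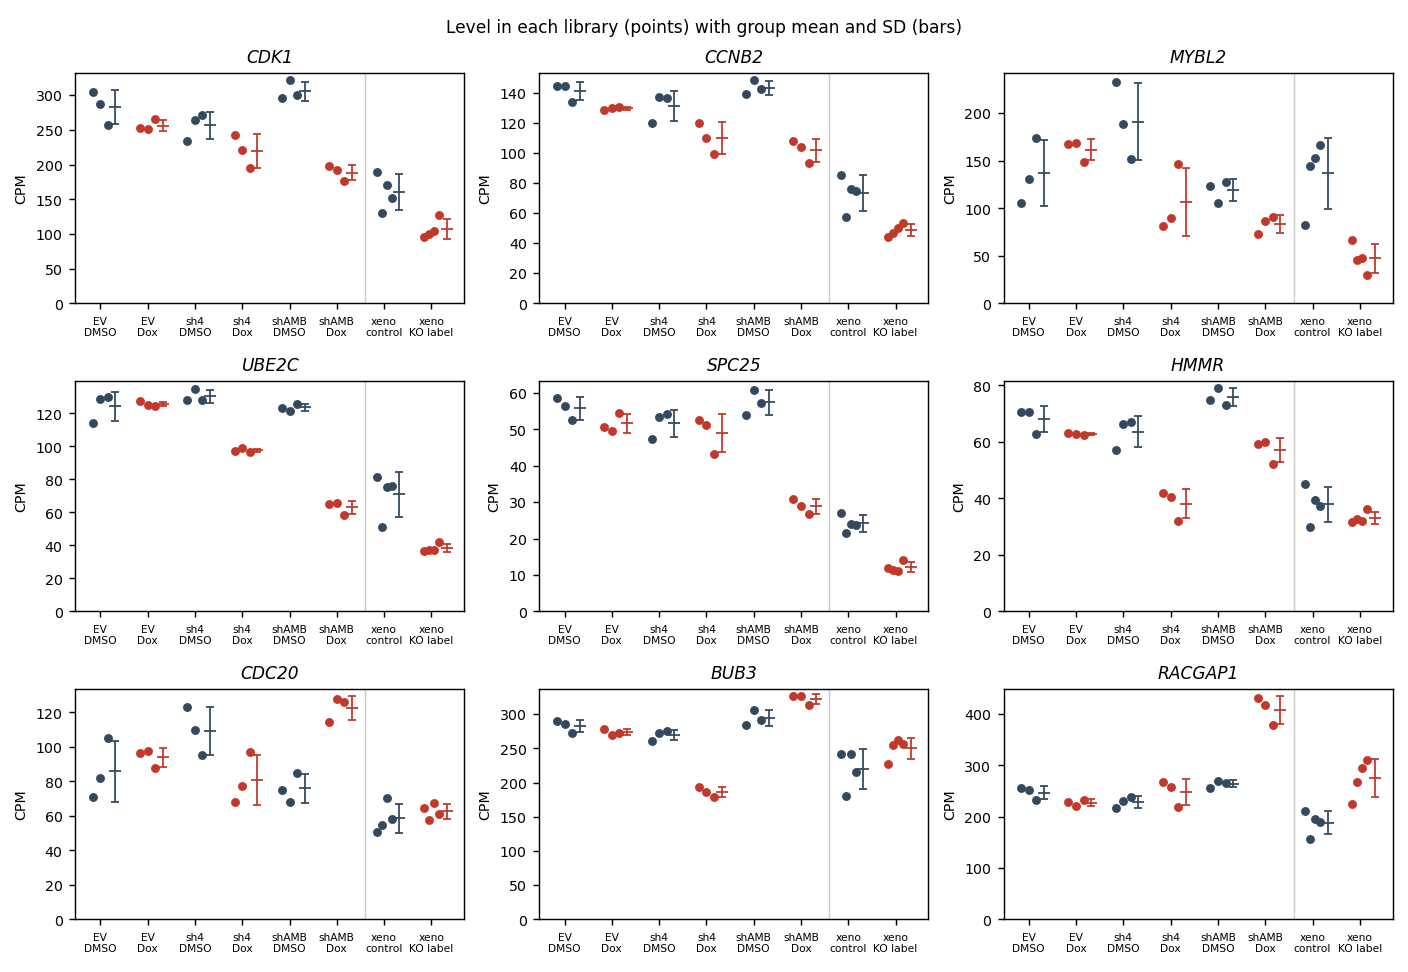
Level in CPM of 9 members in each of the 26 libraries (points, dark for control and red for doxycycline), with the mean and SD of each group beside them, on axes that start at 0. UBE2C falls with both hairpins and in the tumors, SPC25 falls in shAMB and in the tumors while its sh4 groups overlap, and CDC20 and BUB3 fall in sh4 and rise in shAMB.

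Late cell cycle promoters are known for the cell cycle genes homology region (CHR), which the MuvB complex binds, and for CCAAT boxes bound by NF-Y. RefSeq promoter windows of 250 bases before to 50 after the start (build GRCh38.p14) were at hand for 42 of the 50 members, as 54 windows. The CHR letters TTTGAA, read on both strands so that TTCAAA also counts, were found in 61.1% of these windows, against 15.2% of 35116 windows of all genes. CCAAT or its complement ATTGG was found in 66.7% of the members' windows against 34.6% of all. Per gene, 30 of the 42 members held CHR letters, in 25 of them between 60 bases before and 30 after the start. No letters can be shared between a CHR and a CCAAT match except at their ends, and a match is a description of the letters and not of a bound site.

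The 100 bases before the start are shown for 10 members that carry the contrasts described here, written 5′ to 3′ on the gene's strand, with CHR and CCAAT letters in capitals. The first 6 fell in all 3 settings, KIF4A fell in shAMB and the tumors, and the last 3 fell in sh4 and rose in shAMB.
CDK1 (chr10:60778378-60778477, + strand): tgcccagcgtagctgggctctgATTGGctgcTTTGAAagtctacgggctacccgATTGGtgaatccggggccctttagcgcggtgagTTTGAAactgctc
CCNB2 (chr15:59105046-59105145, + strand): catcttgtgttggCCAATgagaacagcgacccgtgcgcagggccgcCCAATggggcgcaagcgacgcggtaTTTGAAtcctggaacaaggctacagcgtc
BUB1B (chr15:40160969-40161068, + strand): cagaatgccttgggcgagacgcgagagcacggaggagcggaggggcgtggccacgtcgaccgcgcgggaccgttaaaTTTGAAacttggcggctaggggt
NCAPG (chr4:17810879-17810978, + strand): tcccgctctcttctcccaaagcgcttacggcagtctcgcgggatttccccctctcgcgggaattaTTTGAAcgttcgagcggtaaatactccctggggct
KIF11 (chr10:92593030-92593129, + strand): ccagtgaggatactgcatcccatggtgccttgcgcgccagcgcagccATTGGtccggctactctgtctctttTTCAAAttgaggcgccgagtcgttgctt
MYBL2 (chr20:43667014-43667113, + strand): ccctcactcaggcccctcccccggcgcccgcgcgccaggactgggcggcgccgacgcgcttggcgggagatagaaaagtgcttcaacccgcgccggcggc
KIF4A (chrX:70290004-70290103, + strand): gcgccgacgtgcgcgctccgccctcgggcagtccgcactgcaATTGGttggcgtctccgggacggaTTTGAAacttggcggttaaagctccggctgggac
CDC20 (chr1:43358881-43358980, + strand): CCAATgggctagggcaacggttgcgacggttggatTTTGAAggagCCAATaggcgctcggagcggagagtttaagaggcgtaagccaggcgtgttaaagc
INCENP (chr11:62123911-62124010, + strand): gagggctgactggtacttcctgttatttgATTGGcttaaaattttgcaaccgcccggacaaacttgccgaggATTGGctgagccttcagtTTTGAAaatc
BUB1 (chr2:110678064-110678163, - strand): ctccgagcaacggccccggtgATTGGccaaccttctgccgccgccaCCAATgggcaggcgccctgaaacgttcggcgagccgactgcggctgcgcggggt
Members of unlike response carried like letters: CDC20 and INCENP hold a CHR as do CDK1 and CCNB2, and MYBL2 holds neither motif in these 100 bases. Of the 30 members with CHR letters, 15 fell in sh4, 15 in shAMB and 11 in the tumors, and of the 12 with a window but no CHR letters, 9, 7 and 8 did. The median log2 fold change of the 30 was -0.19, -0.12 and -0.12 in the 3 settings and that of the 12 was -0.31, -0.29 and -0.43, given as a description without a test.

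Among the 8 cyclins and mitotic entry kinases, 5 fell in sh4, 4 fell and 1 rose in shAMB, and 4 fell in the tumors. Over all genes 18%, 28.4% and 19.9% fell and 22.9%, 37.6% and 21.2% rose in sh4, shAMB and the tumors. These shares also apply to the role groups below. CCNB1 stood at 297, 324 and 331 CPM in uninduced and 227, 218 and 203 CPM in induced sh4 cells, without overlap. Its log2 fold change was -0.55 ± 0.06 SE in sh4 (adjusted p = 1.51e-06) and -0.34 ± 0.06 in shAMB (adjusted p = 9.53e-05), while the tumor value of -0.11 ± 0.13 did not pass (adjusted p = 0.535). CCNA2, the cyclin of S phase and G2, showed another order. It fell in shAMB (-0.63 ± 0.08 SE, adjusted p = 3.69e-06) and in the tumors (-0.52 ± 0.12, adjusted p = 0.00585), with -0.18 ± 0.08 in sh4 short of the threshold (adjusted p = 0.074).

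PLK1, the kinase that helps activate CDK1, went from 154, 145 and 124 to 83.2, 89.2 and 111 CPM in the sh4 line. It fell there by 0.58 on the log2 scale (adjusted p = 0.000372), while values of 0.18 ± 0.11 SE in shAMB (adjusted p = 0.139) and -0.09 ± 0.12 in the tumors (adjusted p = 0.558) did not pass. With trends in GC content and length removed, PLK1 was called lower in shAMB, at -0.15, and with TPM it was called higher, at 0.36. AURKA, the kinase of the spindle poles, lay between -0.04 and 0.13 in the 3 settings. The phosphatase gene CDC25B, which removes inhibitory phosphate from CDK1, fell in sh4 by 0.47 (adjusted p = 0.0115) and in the tumors by 0.41 (adjusted p = 0.0287). Its relative CDC25C rose in shAMB by 0.37 (adjusted p = 0.000423), from 39.6, 40.4 and 38.6 to 53.9, 52.2 and 47.1 CPM.

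The spindle checkpoint members split by line. Of 5, 3 fell in sh4, 3 fell and 2 rose in shAMB, and 2 were lower in the tumors. BUB3, the adaptor that brings the BUB kinases to kinetochores, stood at 261, 273 and 276 CPM in uninduced and 193, 186 and 179 CPM in induced sh4 cells. In shAMB cells it stood at 284, 306 and 292 CPM without and 326, 327 and 314 CPM with induction. The groups did not overlap in either line, and the directions were opposite. The log2 fold change of BUB3 was -0.54 ± 0.04 SE in sh4 (adjusted p = 4.57e-08) and 0.13 ± 0.04 in shAMB (adjusted p = 0.00979). BUB1, the kinase that BUB3 recruits, fell by 0.25 in sh4 (adjusted p = 0.00182) and rose by 0.17 in shAMB (adjusted p = 0.0136). The rises of BUB1 and BUB3 in shAMB did not pass with RLE scaling, without the low-count filter, with DESeq2 or with the shAMB libraries fitted alone. MAD2L1, the checkpoint protein that sequesters CDC20, fell in shAMB by 0.62 (adjusted p = 5.39e-06) and in the tumors by 0.66 (adjusted p = 0.00117), with -0.07 ± 0.08 SE in sh4 (adjusted p = 0.486). TTK, the Mps1 kinase, fell in shAMB by 0.21 (adjusted p = 0.0197), a call lost without uninduced replicate 2 or induced replicate 3.

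All 3 members of the anaphase promoting complex and securin group fell in sh4, and in shAMB 2 fell and 1 rose. The riser was CDC20, the activator that turns the complex on at anaphase. It stood at 123, 109.9 and 95.05 CPM in uninduced and 68.1, 77.2 and 96.7 CPM in induced sh4 cells, where the groups overlapped through the induced replicate 3. In shAMB cells it went from 74.8, 68.1 and 84.7 to 115, 128 and 126 CPM, without overlap. CDC20 thus fell by 0.44 in sh4 (adjusted p = 0.0206) and rose by 0.69 in shAMB (adjusted p = 0.000498), and its tumor value was 0.10 ± 0.11 SE (adjusted p = 0.502). The sh4 call was lost without DMSO replicate 1 or 2 or without doxycycline replicate 1 or 2. PTTG1 fell by 0.36 in sh4 (adjusted p = 0.000191) and 0.23 in shAMB (adjusted p = 0.0035).

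In sh4 all 4 subunits of the chromosomal passenger complex, which corrects wrong attachments and marks the division plane, fell. In shAMB 2 of the 4 rose and none fell, and in the tumors 2 were lower. AURKB, its kinase, stood at 43.96, 50.1, 59.1 and 59.2 CPM in control and 34.0, 24.1, 25.8 and 24.6 CPM in doxycycline tumors, without overlap. It fell there by 0.97 (adjusted p = 0.00033) and in sh4 by 0.48 (adjusted p = 0.0129), the latter a call lost without doxycycline replicate 1, and its shAMB value was -0.20 ± 0.14 SE (adjusted p = 0.219). CDCA8, or borealin, went from 148, 145 and 143 to 85.7, 95.6 and 104 CPM in sh4, a fall of 0.61 (adjusted p = 4.73e-06), and was lower in the tumors by 0.37 (adjusted p = 0.00395). BIRC5, or survivin, fell by 0.23 in sh4 (adjusted p = 0.000814) and rose by 0.20 in shAMB (adjusted p = 0.0011). INCENP stood at 79.5, 67.4 and 58.6 CPM in uninduced and 39.2, 42.8 and 63.0 CPM in induced sh4 cells, and at 52.4, 44.9 and 53.2 and 62.2, 67.5 and 77.5 CPM in shAMB. Its log2 fold changes were -0.51 ± 0.16 SE (adjusted p = 0.0175) and 0.46 ± 0.16 (adjusted p = 0.0176). INCENP is among the GC-rich members (59.5% GC), and with trends in GC content and length removed its shAMB value turned to -0.10, so that its rise depends on that choice. The sh4 call of INCENP was lost without DMSO replicate 1 or without doxycycline replicate 1 or 2, and its shAMB call without uninduced replicate 2 or induced replicate 3.

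Of the 7 centromere and kinetochore members, 3 fell in sh4, 4 in shAMB and 3 in the tumors. Over all genes 18%, 28.4% and 19.9% fell in these settings. SPC25, a subunit of the NDC80 complex that grips microtubules, had the largest fall of any member in shAMB. It stood at 54.0, 60.9 and 57.4 CPM in uninduced and 30.9, 28.9 and 26.8 CPM in induced shAMB cells, and at 27.1, 21.5, 24.1 and 23.9 and 11.8, 11.3, 11.1 and 14.1 CPM in control and doxycycline tumors. In sh4 cells it was 47.4, 53.3 and 54.3 CPM without and 52.6, 51.2 and 43.1 CPM with induction, where the groups overlapped. SPC25 fell by 0.99 on the log2 scale in shAMB (adjusted p = 4.48e-08) and 1.00 in the tumors (adjusted p = 0.000118), against -0.08 ± 0.08 SE in sh4 (adjusted p = 0.47). Its complex partners NDC80 and NUF2 passed the test in none of the settings, with values from -0.03 to 0.10 for NUF2 and from -0.01 to 0.09 for NDC80. CENPI fell in shAMB by 0.64 (adjusted p = 1.01e-05) and in the tumors by 0.89 (adjusted p = 0.000107). CENPF, a large kinetochore protein, fell in sh4 by 0.34 (adjusted p = 0.00191), with 0.12 ± 0.07 in shAMB (adjusted p = 0.154). CENPA, the histone that marks centromeres, fell by 0.26 in sh4 (adjusted p = 0.00109) and 0.13 in shAMB (adjusted p = 0.0434).

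Of the spindle motors and assembly factors, 5 of 8 were lower in sh4, 6 in shAMB and 5 in the tumors, and none was higher. HMMR, a protein of spindle poles, stood at 57.3, 66.4 and 67.2 CPM in uninduced and 42.0, 40.3 and 32.1 CPM in induced sh4 cells, without overlap. It fell by 0.74 in sh4 (adjusted p = 8.33e-06) and 0.41 in shAMB (adjusted p = 0.000885). KIF4A, the chromosome-bound motor, showed the order of SPC25. It went from 192, 186 and 190.4 to 114, 110.1 and 103 CPM in shAMB and stood at 138, 117, 129 and 127 and 71.3, 72.7, 77.5 and 90.7 CPM in control and doxycycline tumors. The log2 fold changes of KIF4A were -0.80 ± 0.05 SE (adjusted p = 2.48e-09) and -0.71 ± 0.10 (adjusted p = 0.000239), against -0.10 ± 0.05 in sh4 (adjusted p = 0.134). TPX2, which activates AURKA on the spindle, fell by 0.31 in sh4 (adjusted p = 0.000542) and 0.38 in shAMB (adjusted p = 4.06e-05). DLGAP5 and NUSAP1, which stabilise spindle microtubules, fell in shAMB by 0.54 and 0.25 and in the tumors by 0.38 and 0.31. The microtubule-depolymerising motors KIF2C and KIF18A fell in sh4 by 0.32 and 0.30, and KIF2C also in the tumors by 0.32.

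Central spindle and cytokinesis members moved in both directions: 3 of 7 fell in sh4, 3 fell and 2 rose in shAMB, and 1 fell and 1 rose in the tumors. Over all genes 40.9%, 66.0% and 41.1% passed in either direction in these settings. RACGAP1, a subunit of centralspindlin, was the member that rose in the tumors. It went from 256, 269 and 266 to 430.1, 416 and 378 CPM in shAMB. Its levels were 211, 157, 195 and 189 CPM in control and 226, 267, 294 and 310.3 CPM in doxycycline tumors, again without overlap. RACGAP1 rose by 0.63 in shAMB (adjusted p = 8.58e-07) and 0.55 in the tumors (adjusted p = 0.00449), against 0.12 ± 0.07 SE in sh4 (adjusted p = 0.182). Its partner in centralspindlin, the motor KIF23, fell in shAMB by 0.32 (adjusted p = 0.000354). KIF14, a motor needed for abscission, went from 147, 151 and 167 to 101, 101 and 88.6 CPM in sh4, a fall of 0.68 (adjusted p = 1.17e-06), and fell by 0.19 in shAMB (adjusted p = 0.0258), a call lost without uninduced replicate 2 or induced replicate 2 or 3. PRC1, which bundles midzone microtubules, fell in sh4 by 0.34 (adjusted p = 2.98e-05), and ANLN, or anillin, rose in shAMB by 0.18 (adjusted p = 0.0168).

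Of the 6 genes of chromosome condensation and the chromosome surface, 1 fell and 1 rose in sh4, 2 fell and 1 rose in shAMB, and 1 fell in the tumors. Over all genes 40.9%, 66.0% and 41.1% passed in these settings. TOP2A fell in shAMB by 0.22 (adjusted p = 0.0177), a call lost without uninduced replicate 2 or induced replicate 3. The condensin subunit SMC2 was the member that rose in sh4, from 89.3, 95.3 and 103 to 122, 119 and 99.96 CPM, a change of 0.24 ± 0.07 SE on the log2 scale (adjusted p = 0.0119). This call was lost without DMSO replicate 1, without doxycycline replicate 1 or 2, with GC and length trends removed, and with the sh4 libraries fitted alone. NCAPH, a further condensin subunit, rose in shAMB by 0.17 (adjusted p = 0.000729). MKI67 did not pass in the 3 settings, and its values were -0.14 ± 0.07 SE in sh4 (adjusted p = 0.0979), 0.02 ± 0.07 in shAMB (adjusted p = 0.827) and -0.37 ± 0.15 in the tumors (adjusted p = 0.0765). In the tumors MKI67 stood at 862, 1027, 640.4 and 871 CPM in controls and 544, 671, 642 and 780.5 CPM on doxycycline food, with overlap. It passed there without control replicate 3, without doxycycline replicate 4 or without the low-count filter (-0.43). With GC and length trends removed MKI67 was called lower in all 3 settings, at -0.26, -0.24 and -0.54, while with TPM it was called higher in shAMB, at 0.20.

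FOXM1, the forkhead factor that shares targets with MYBL2, fell in the tumors and in shAMB. Its levels were 196, 228, 201 and 219 CPM in control and 135, 121, 131 and 136 CPM in doxycycline tumors, without overlap. FOXM1 fell by 0.69 there (adjusted p = 0.00011) and by 0.20 in shAMB (adjusted p = 0.0477), with -0.08 ± 0.08 SE in sh4 (adjusted p = 0.464). The shAMB call was lost without uninduced replicate 1 or 3 or without any 1 of the induced replicates.

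The responses to the 2 hairpins were then compared with each other, each against its own DMSO libraries. The difference, sh4 effect minus shAMB effect, passed the test for 25 of 50 members, 10 higher and 15 lower, where 27.8% of all genes were higher, 33.1% lower and 60.9% passed in either direction. With RLE scaling the members' counts were 13 and 13, and with GC and length trends removed they were 10 and 31. No share of all genes was set beside these counts, so they show only how the calls moved. For 5 members the fall in sh4 and the rise in shAMB both passed the threshold: BUB1, BUB3, CDC20, BIRC5 and INCENP. Their difference passed too, which adds nothing separate, since it did so for all 806 genes of this pattern. The 5 are 17.9% of the 28 members that fell in sh4 and 55.6% of the 9 that rose in shAMB, where over all genes the shares were 30.1% and 14.4%. Of all 50 members 18% rose in shAMB and 56% fell in sh4, so these shares are the members' own rates. With TPM the sh4 calls of BUB1, CDC20, BIRC5 and INCENP were lost. With the sh4 libraries fitted alone those of CDC20 and INCENP were lost. The difference was -1.13 ± 0.20 SE for CDC20 (adjusted p = 0.000192), -0.67 ± 0.06 for BUB3 (adjusted p = 1.29e-07) and -0.97 ± 0.22 for INCENP (adjusted p = 0.00169). It was -0.43 ± 0.06 for BIRC5 (adjusted p = 4.13e-05) and -0.41 ± 0.08 for BUB1 (adjusted p = 0.000303). In the other direction SPC25 (0.91 ± 0.11, adjusted p = 7.16e-06), KIF4A (0.70 ± 0.07, adjusted p = 8.89e-07) and CENPI (0.66 ± 0.12, adjusted p = 0.0003) differed most, all lower in shAMB than in sh4.

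**Figure D4:**
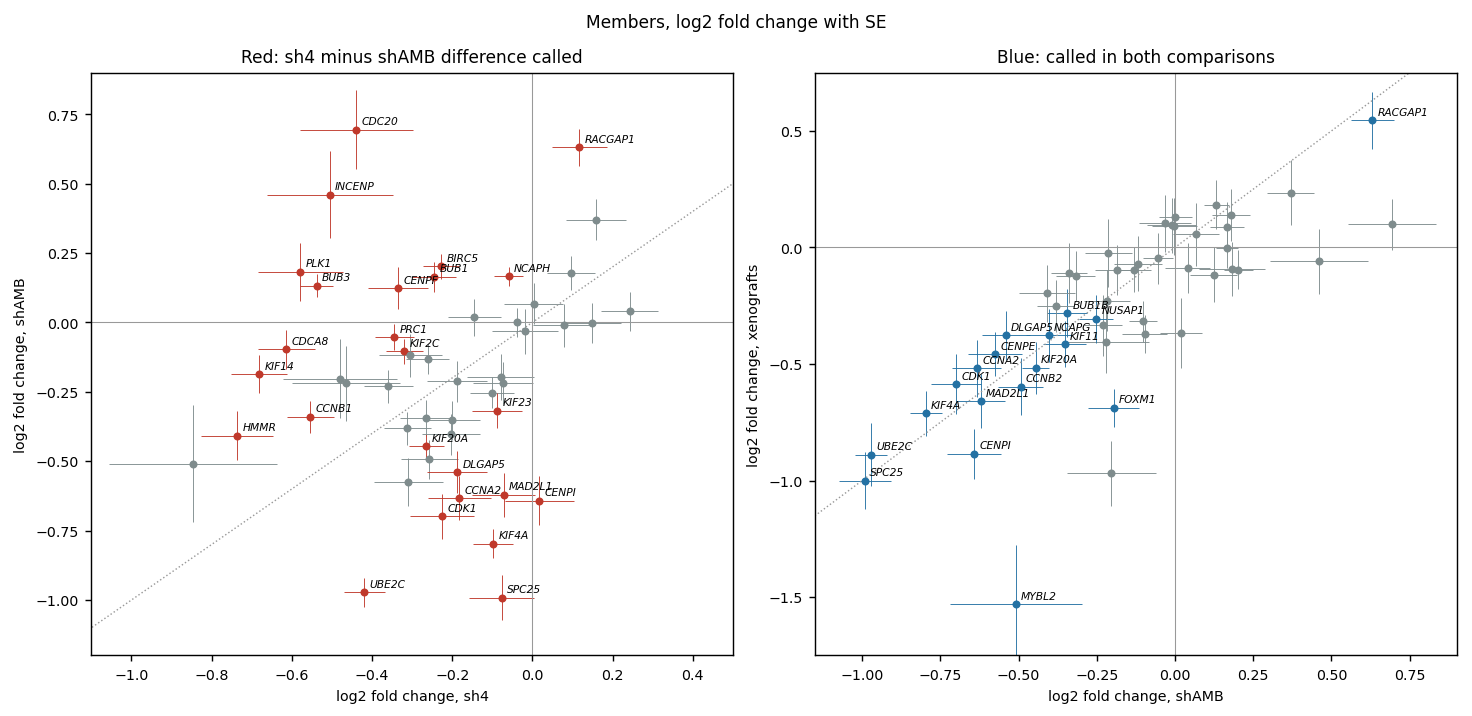
Left, log2 fold change of each member in sh4 (x axis) and shAMB (y axis), with red for the 25 members whose difference was called. Right, the same for shAMB (x axis) and the tumors (y axis), with blue for the members called in both; bars are SE and the dotted line marks equal values. CDC20 and INCENP lie far above the line on the left, and RACGAP1 at the upper end and SPC25, UBE2C and MYBL2 at the lower end stand out on the right.

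The lists of fallen members overlapped to unlike degrees. In all, 15 members fell in both hairpin lines, 53.6% of the 28 in sh4 and 57.7% of the 26 in shAMB, where over all genes the shares were 39.5% and 25%. Of all 50 members 52% fell in shAMB and 56% in sh4, so these shares lie near the members' own rates. A further comparison found 17 that fell in shAMB and were lower in the tumors, 65.4% of the 26 and 81.0% of the 21, where over all genes the shares were 58.2% and 78.2%. The number shared by sh4 and the tumors was 13, 46.4% of the 28 and 61.9% of the 21, where over all genes the shares were 35.4% and 30.2%. Here too the shares lie near the members' own rates, 42% in the tumors and 56% in sh4. RACGAP1 was the member that rose in both shAMB and the tumors. In shAMB and the tumors 0 members were called in opposite directions, and over all genes 1.19% of those that fell and 0.866% of those that rose in shAMB were.

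The hairpin effects were also set against the effect of doxycycline in EV cells. These comparisons share the EV libraries, so their values are given side by side and their overlap was not used. The sh4 effect minus the EV effect passed for 22 members, 3 higher and 19 lower, where 17.8% of all genes were higher and 14.7% lower. The shAMB effect minus the EV effect passed for 27 members, 9 higher and 18 lower, where 23.7% of all genes were higher and 21.7% lower. With RLE scaling the counts for shAMB were 4 and 22, and with the deposited TPM values they were 9 and 10 for sh4 and 17 and 6 for shAMB. Over all genes 6627 of 14905 passed with RLE for shAMB, 3102 of them higher. With TPM 6243 passed for sh4 and 7738 for shAMB, 5225 and 5935 of them higher. The uninduced lines were compared as well. Uninduced sh4 cells differed from uninduced EV cells in 0 of 50 members by edgeR, where 1.12% of all genes passed in either direction. An unadjusted p under 0.05 was found for 14 members, 28% of them and 28% of all genes, and DESeq2 also called 0. Uninduced shAMB cells differed from EV in 1 member, where 1.52% of all genes passed. This was MKI67, at 480.2, 476 and 462 CPM against 625, 568 and 593 CPM in EV, a log2 difference of -0.33 ± 0.07 SE (adjusted p = 0.0161), a call lost without EV replicate 1 or 3 or without any 1 of the shAMB replicates.

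Lists of other genes of the pathway showed where the members stood among their neighbours. Of all genes 40.9% passed in sh4, 66.0% in shAMB and 41.1% in the tumors. Counts of a list near these shares are not read as results on it. Of 11 genes of the DREAM and MuvB regulators, which repress or activate the members, 7 rose and 0 fell in sh4, while 3 rose and 3 fell in shAMB and 3 were lower in the tumors. RBBP4, the histone-binding MuvB subunit, rose in sh4 by 0.28 (adjusted p = 0.00257) and fell in shAMB by 0.33 (adjusted p = 0.000387) and in the tumors by 0.29 (adjusted p = 0.0459). Of the 7 brakes on mitotic entry that passed the filter, 2 rose and 2 fell in sh4, 1 rose and 3 fell in shAMB, and 2 were lower in the tumors. CHEK2, the DNA damage kinase, fell in all 3 settings, by 0.34, 1.12 and 1.14. WEE1, the kinase that holds CDK1 inactive, stood at 50.2, 55.7 and 57.2 CPM in uninduced and 104, 99.1 and 85.9 CPM in induced sh4 cells, a rise of 0.83 (adjusted p = 8.54e-07) that was chosen for mention after its values were seen.

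Among 18 subunits and inhibitors of the anaphase promoting complex, 5 rose and 2 fell in sh4, while 3 rose and 10 fell in shAMB and 1 rose and 9 fell in the tumors. FBXO5, the inhibitor Emi1, fell by 0.26, 0.89 and 0.84 in sh4, shAMB and the tumors. The subunit gene ANAPC15 rose in sh4 by 0.36 and fell by 0.91 and 0.84 in shAMB and the tumors. Of 31 other kinetochore genes, 9 rose and 3 fell in sh4, 3 rose and 23 fell in shAMB, and 1 rose and 20 fell in the tumors. HJURP, the chaperone of CENPA, fell by 0.38, 0.16 and 0.33. OIP5, a further factor of CENPA loading, rose by 0.48 in sh4 and fell by 0.65 and 0.64 in shAMB and the tumors.

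Of 14 cohesin and other condensin subunits, 4 rose and 1 fell in sh4, 2 rose and 6 fell in shAMB, and 1 rose and 6 fell in the tumors. Over all genes 40.9%, 66.0% and 41.1% passed in either direction in these settings. The condensin II subunits NCAPD3 and NCAPG2 rose in sh4 by 0.23 and 0.21, and fell in shAMB by 0.19 and 0.25 and in the tumors by 0.53 and 0.38. Of 33 other spindle, cytokinesis and mitotic kinase genes, 4 rose and 17 fell in sh4, 5 rose and 13 fell in shAMB, and 1 rose and 15 fell in the tumors. SPAG5, or astrin, fell by 0.11 in sh4 and by 1.01 and 1.16 in shAMB and the tumors. CDCA3, which targets WEE1 for degradation, fell by 0.56, 0.48 and 0.99.

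**Figure D5:**
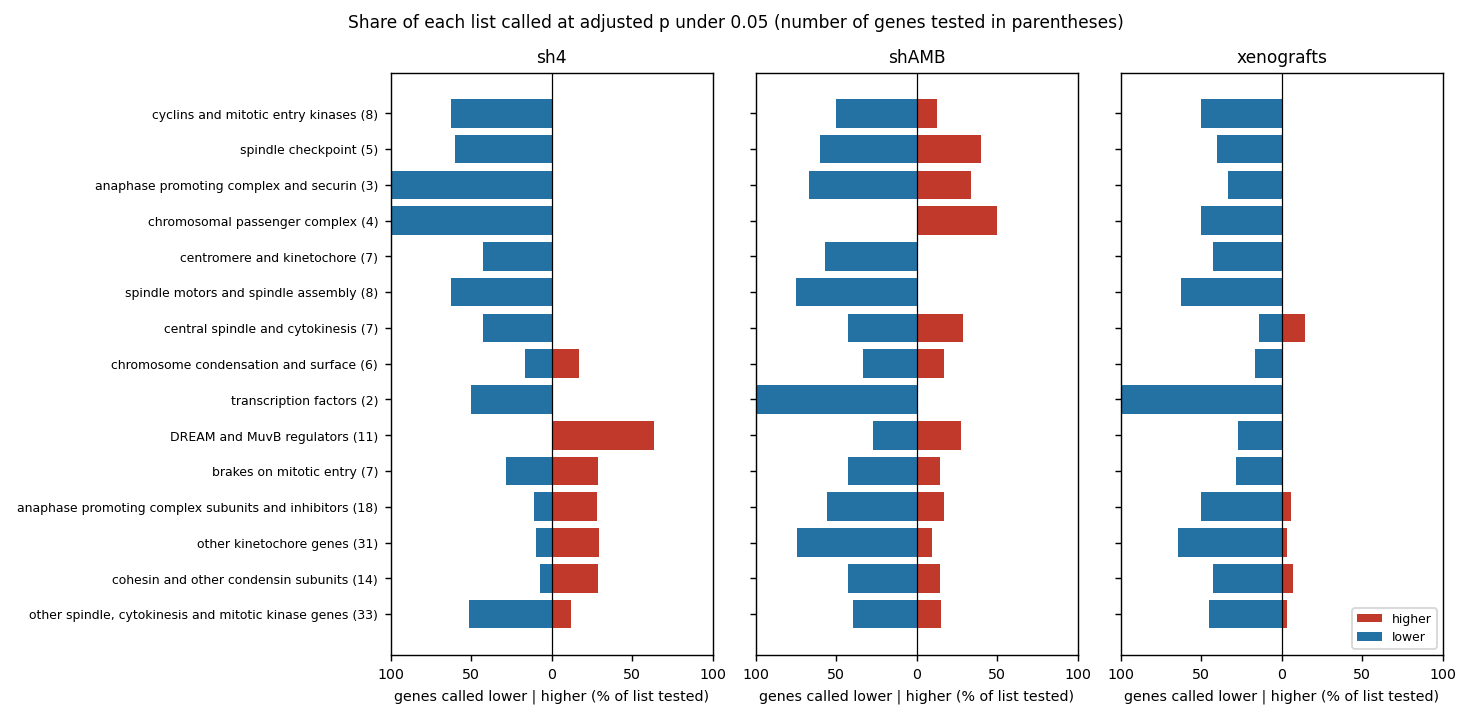
Share of each list, in percent of its genes tested, that was called lower (blue, left of 0) or higher (red, right of 0) in sh4, shAMB and the tumors; the upper 9 lists hold the members and the lower 6 other genes of the pathway. In sh4 the DREAM and MuvB list lies wholly on the higher side, with 7 of 11 genes, and in shAMB and the tumors the other kinetochore genes lie mostly on the lower side, with 23 and 20 of 31. Over all genes 22.9% rose in sh4, and 28.4% and 19.9% fell in shAMB and the tumors.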

How the data were processed

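RNA was sequenced as paired reads from 18 cell culture and 8 tumor libraries. According to the submitters' processing notes, the authors aligned reads to hg38 with STAR and counted them with RSEM, and the deposited tables hold expected counts and TPM per gene. Versions, the use of strand in counting and the removal of mouse reads are not given in the sources used here, and the labels name polyA RNA where the protocol names a total RNA kit. Expected counts were rounded and tested with the quasi-likelihood test of edgeR 4.0.16 (R 4.3.3) after TMM scaling and the filterByExpr filter on low counts, with Benjamini-Hochberg adjustment over the 14905 (cell culture) or 15960 (tumor) genes tested. All 18 cell culture libraries entered 1 fit and the 8 tumor libraries another. A gene was called at an adjusted p under 0.05, and fell or rose is written of called genes. All p-values are two-sided.

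The members and gene lists were chosen with earlier results of these data known, and no list was tested as a set. Named members were 21 taken by role, up to 3 of the largest called rises and falls per induction, and those called alike in all 3 hairpin settings or oppositely in sh4 and shAMB. From each pathway list, up to 2 genes called in all 3 settings were named by the size of their mean change. Signs were kept in that mean, so that opposite changes partly cancel. The other members are given by role. Alternatives were RLE scaling, no filter, DESeq2 1.42.0, removal of GC and length trends, the deposited TPM on a log2(TPM + 1) scale with limma 3.58.1, a replicate block, fits of single lines and leaving out each replicate. Both edgeR and DESeq2 were run on simulated counts with few changed genes, a constant dispersion and no GC or length trends. These data differ in each of these points, so that check does not cover them. Replicates within a group differed by more than sampling noise in every pair, so each was counted as 1 sample. Depth was high for every member, and the number of replicates limits the precision.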

Additional observations from a re-analysis of the deposited data

Results flagged for a closer look

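The effect of induction differed between the sh4 and shAMB lines for 25 members, by the edgeR test of the difference of the log2 fold changes, sh4 minus shAMB, where 60.9% of all genes passed. It was lower in sh4 for CDC20 (-1.13), INCENP (-0.97), PLK1 (-0.76), BUB3 (-0.67), CDCA8 (-0.52), RACGAP1 (-0.51), KIF14 (-0.49) and CENPF (-0.46). It was also lower in sh4 for BIRC5 (-0.43), BUB1 (-0.41), HMMR (-0.33), PRC1 (-0.29), NCAPH (-0.22), KIF2C (-0.22) and CCNB1 (-0.21). It was higher in sh4 for KIF20A (0.18), KIF23 (0.23), DLGAP5 (0.35), CCNA2 (0.45), CDK1 (0.47), MAD2L1 (0.55), UBE2C (0.55), CENPI (0.66), KIF4A (0.70) and SPC25 (0.91). The GC contrast of the libraries also moved with induction in the shAMB line, and its part in these differences was not tested beyond the values without GC and length trends. The calls of CCNB1, HMMR and KIF20A were each lost on leaving out any of several libraries. Without induced sh4 replicate 3 the count of differing members was 33, with 18 higher and 15 lower, where 66.8% of all genes passed.

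Of 64 groups of 4 tumor libraries examined for the named members, 2 held a library far from the rest, where chance flags about 1 in 20 groups. UBE2C stood at 42.1 CPM in doxycycline tumor replicate 4 and at 36.7 to 37.4 CPM in the other 3, all below the control tumors. CENPF stood at 1612 CPM in control tumor replicate 1 and at 1341 to 1384 CPM in the others.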

How the results depend on the processing

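For the 32 named members in the 4 induction comparisons and the sh4 minus shAMB difference, 2156 of 2464 alternative values kept their direction and side of the threshold, 136 lost a call, 78 gained one and 26 changed sign with a call in either fit. A further 68 values, of 24 pairs of a member and a comparison, changed sign without a call in either fit. With GC and length trends removed, the members called were 1 in EV, 44 in sh4, 40 for sh4 minus EV, 42 for shAMB minus EV, 41 for sh4 minus shAMB and 6 in uninduced shAMB. Over all genes 0.429% were called in EV, 55% in sh4, 44.3% for sh4 minus EV and 58.2% for shAMB minus EV. With TPM the members called were 19 in sh4, 0 in uninduced shAMB and 3 in the tumors, and with the sh4 libraries fitted alone 17. In sh4 the shares over all genes were 48.2% with TPM and 25.8% with the sh4 libraries fitted alone. Leaving out single replicates gave 0 to 0 calls in EV, 25 to 30 in sh4, 28 to 32 in shAMB, 15 to 23 for sh4 minus EV, 19 to 24 for shAMB minus EV, 22 to 33 for sh4 minus shAMB, 0 to 0 in uninduced sh4, 0 to 1 in uninduced shAMB and 18 to 23 in the tumors. Over all genes these fits called 32.3% to 53.4% in sh4, 58.4% to 63.8% in shAMB and 24.9% to 50.1% for sh4 minus EV. Counts in this section without a share of all genes show how calls moved and are not read as results on the members.

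Sign changes with a call appeared with GC and length trends removed, with or without the replicate block, and, in 1 case, with TPM. Those without a call also appeared under the other alternatives, with values of at most 0.276 in size. Without those trends EV PLK1 was -0.11, and shAMB PLK1, MKI67, INCENP and NDC80 were -0.15, -0.24, -0.10 and 0.19. For sh4 minus shAMB, BUB1B, TTK, NDC80, KIF11, TPX2, TOP2A and NCAPG were -0.19, -0.27, -0.21, -0.15, -0.12, -0.13 and -0.11, and MYBL2 was 0.49. With TPM, sh4 AURKA was 0.15. The cause was not tested.

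Same-numbered libraries did not deviate together, with correlations of both signs, and 0 of 3 treated libraries in EV, sh4 and shAMB and 1 of 4 in the tumors correlated best with their own number, so the numbers were not used as pairs. With the replicate block the members called were 0, 29, 33 and 17 in EV, sh4, shAMB and the tumors, and 21, 26 and 25 for sh4 minus EV, shAMB minus EV and sh4 minus shAMB. Over all genes this fit called 0.101%, 40.1% and 65.5% in EV, sh4 and shAMB. It called 31.8% for sh4 minus EV and 44.4% for shAMB minus EV. Among the named members the tumor calls of BUB1B and NCAPG and the shAMB call of FOXM1 were then lost. With the replicate block and GC and length trends removed the members called were 44 in sh4, 40, 42 and 41 for these differences and 5 in uninduced shAMB. Over all genes 54.3% were then called in sh4, 43.7% for sh4 minus EV and 57.9% for shAMB minus EV. The sign changes listed above for shAMB and for sh4 minus shAMB then gave -0.148 for PLK1, -0.244 for MKI67, -0.0992 for INCENP and 0.191 for NDC80, and -0.188 for BUB1B, -0.274 for TTK, -0.211 for NDC80, -0.148 for KIF11, -0.119 for TPX2, -0.131 for TOP2A, -0.109 for NCAPG and 0.485 for MYBL2.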
